A study of Drosophila melanogaster with 4 samples.

Results

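The regions described here are the stretches enriched for Su(var)3-7 in the telomere-proximal 1 Mb of chromosome arms 2L, 3L, 3R and X of Drosophila melanogaster. A region belonged to a tip when it started within the first 1 Mb of 2L, 3L or X, or ended within the last 1 Mb of 3R, the position from which the arm sequence runs inwards. By this rule 291 of the 9474 enriched regions of the combined list lay in the tips: 72 on 2L, 84 on 3L, 57 on 3R and 78 on X. The rule used position alone, so covered share, length, score and replicate overlap were independent of it. The distal end of 2R was not analysed here.

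The regions came from chromatin immunoprecipitation with sequencing (ChIP-seq) on nuclei from heads of wild-type Oregon-R flies at the stage given as Mixed Adult, with antibody Q3448 against Su(var)3-7. There were 2 ChIP libraries, each set by the submitters against the input library of its own number (2 input libraries, sheared chromatin that was not precipitated). No mutant, transgene or drug was part of the design, so no group lacked the protein. The fly heads were pooled from population cages, and nothing in the labels says that the replicates came from separate collections, so the spread between them may be technical.

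Su(var)3-7 is a zinc-finger protein that binds heterochromatin protein HP1 and modifies position-effect variegation, the patchy silencing of genes placed beside heterochromatin. Fly chromosome ends are kept up by the retrotransposons HeT-A, TART and TAHRE in place of telomerase repeats, and next to these lie the telomere-associated satellite arrays, which silence inserted transgenes (telomeric position effect). HP1 is also part of the cap that protects fly chromosome ends. The sources used here do not say how far each arm sequence of genome release 5 reaches into such repeats, and a tip below means the end of the listed sequence.

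Of the 4 tips, 2L, 3L and X had a higher covered share than the rest of their arm in both replicates, and 3R had a slightly lower one. The covered share is the percentage of bases that lie inside enriched regions. On 2L the tip was covered at 18.3% in replicate 1 and 17.0% in replicate 2, against 13.1% and 13.0% of the rest of the arm. The 3L tip was covered at 17.2% and 15.1%, against 13.2% and 13.5% of the rest. The X tip was covered at 16.8% and 19.6%, against 14.6% and 15.3% of the rest. On 3R the tip was covered at 10.5% and 9.82%, against 11.4% and 10.5% of the rest.

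As tip over rest, the ratios were 1.35 ± 0.0605 on 2L, 1.21 ± 0.133 on 3L, 1.22 ± 0.0935 on X and 0.926 ± 0.0120 on 3R (mean ± SD, n = 2 replicates). For the 4 tips together the ratio was 1.20 ± 0.0136, from covered shares of 15.6% ± 0.232 in the tips and 13.0% ± 0.0465 in the rest of the 4 arms. Flipping the signs of the 2 replicates' log ratios in an exact permutation test (two-sided) gave p = 0.5 for each ratio, the smallest this design allows, so none could pass 0.05 and the ratios are descriptions. The rest of an arm includes its centromere end, which is densely covered on 2L and 3L and, to a lesser degree, on 3R. The last 1 Mb of 3R at that end was covered at 21.0% in replicate 1 and 27.1% in replicate 2. Without the 2 Mb at the centromere end the ratios were 1.63 ± 0.00835 on 2L, 1.47 ± 0.0693 on 3L and 1.19 ± 0.111 on X. The 3R ratio then lay on either side of 1, with 0.973 in replicate 1 and 1.03 in replicate 2.

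**Figure D1:**
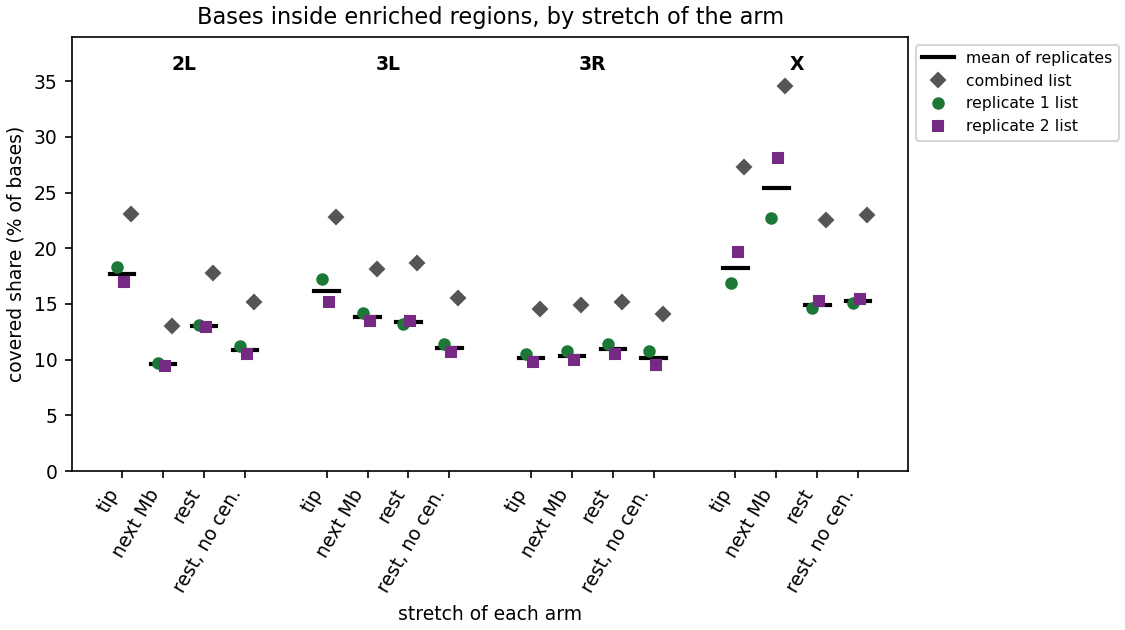
Covered share (% of bases) of the tip, the adjoining 1 Mb ("next Mb"), the rest of the arm, and the rest without the 2 Mb at the centromere end ("rest, no cen."), for 4 arms. Points are single lists and black bars the means of the replicates; on 2L the tip stands above its next Mb (17.7% against 9.59%), while on X it stands below (18.2% against 25.4%).

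Among themselves the tips fell into an order that held only in part. In both replicates 3R was the least covered, with 10.2% ± 0.481, below 3L with 16.2% ± 1.48, 2L with 17.7% ± 0.950 and X with 18.2% ± 1.98 (SD, n = 2). The other tips did not keep their places. In replicate 1 the order was 2L (18.3%), 3L (17.2%) and X (16.8%), and in replicate 2 it was X (19.6%), 2L (17.0%) and 3L (15.1%). X thus changed places with both 2L and 3L, while 2L stood above 3L in both replicates.

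Set among the whole 1 Mb windows of its own arm, counted from the telomere end, no tip stood outside the range of the others in both replicates. The 2L tip ranked 2nd of 23 windows in replicate 1 and 5th in replicate 2, and the windows above it included the most covered one, next to the centromere, with 49.5% and 58.4%. The 3L tip ranked 3rd and 6th of 24, the X tip 7th and 5th of 22, and the 3R tip 14th and 13th of 27. With the windows that touch the 2 Mb at the centromere end left out, 2L ranked 1st of 21 in replicate 1 and 3rd in replicate 2. In the same windows 3L ranked 2nd and 4th of 22, X 7th and 5th of 20, and 3R 13th and 12th of 25. The 3R tip was thus a window of middling coverage, with 10.5% in replicate 1, where the median of its arm's windows was 10.5%.

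**Figure D2:**
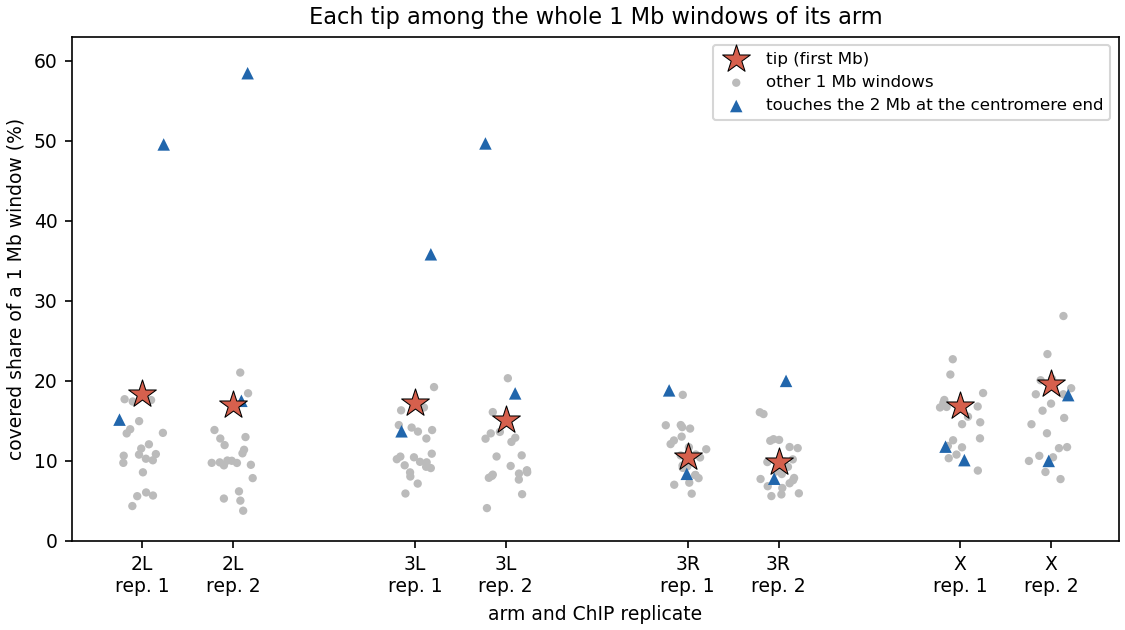
Covered share (%) of each whole 1 Mb window of 4 arms, counted from the telomere end, in the 2 ChIP replicates. Stars are the tips, triangles the windows that touch the 2 Mb at the centromere end, and grey points the other windows; the 3R stars (10.5% and 9.82%) sit in the middle of their arm.

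The 2L tip was more covered than the adjoining 1 Mb in both replicates, whereas the X tip was less covered than its neighbour. The adjoining 1 Mb of 2L, from 1 to 2 Mb from the end, was covered at 9.74% in replicate 1 and 9.43% in replicate 2, so that the tip held 1.84 ± 0.0567 times as much (SD, n = 2). That stretch of 2L still held a further block, at 1100 to 1200 kb, with 34.8% and 34.9% covered. The adjoining 1 Mb of X was covered at 22.7% and 28.1%, the highest of all whole 1 Mb windows on that arm in each replicate, and the tip held 0.721 ± 0.0303 times as much. On 3L the ratio of the tip to the adjoining 1 Mb was 1.17 ± 0.0635, and on 3R it was 0.981 ± 0.00891. Over the 4 arms this ratio was 1.05 ± 0.0602, less than 1 SD from 1. The adjoining 1 Mb was chosen as a comparator after the profile along the arms had been seen.

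Within each tip the regions lay in blocks separated by long empty stretches. Such stretches were not particular to the tips. In the rest of 2L the longest gap between regions was 284.7 kb in replicate 1 and 487.7 kb in replicate 2. Windows of 100 kb covered under 5% in both replicates numbered 6 of 40 in the tips and 219 of 938 in the rest of the 4 arms. On 2L the blocks fell at 100 to 300 kb, 400 to 500 kb and 800 to 900 kb from the end. Windows of 100 kb there were covered at 34.0%, 37.2%, 31.4% and 31.6% in replicate 1 and at 27.1%, 29.3%, 35.0% and 34.9% in replicate 2. Before the innermost of these blocks, bases 603.7 to 739.1 kb from the end of 2L held no region of either replicate, the longest empty stretch of the 4 tips (135.4 kb). On 3L the most covered window in both replicates was 200 to 300 kb from the end, with 34.3% and 29.0%. The second was 800 to 900 kb from the end in replicate 1, with 28.9%, and 600 to 700 kb from it in replicate 2, with 27.7%. The longest stretch of the 3L tip empty in both replicates was shorter, 77.6 kb, from 362.4 kb on.

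The 3R and X tips peaked lower than 2L and 3L in replicate 1. On 3R the window at 400 to 500 kb led in replicate 1, with 21.8% (17.9% in replicate 2), and the one at 300 to 400 kb led in replicate 2, with 25.3% (18.6% in replicate 1). In replicate 2 the window at 600 to 700 kb of 3R came second, with 18.1%, and it held 15.8% in replicate 1. The window at 700 to 800 kb of 3R held no base inside a region of either replicate. On X, apart from the window at 200 to 300 kb (4.30% and 4.39%), the windows of the tip ran from 10.6% to 23.9% in replicate 1 and from 14.6% to 30.8% in replicate 2. The largest disagreements between the replicates were at 800 to 900 kb of 3L (28.9% in replicate 1 and 18.8% in replicate 2), at 600 to 700 kb of X (20.8% and 30.8%) and at 200 to 300 kb of 3R (12.2% and 3.42%).

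Counted as windows of 100 kb covered at least 25% in both replicates, the tips held 6 of 40 (15%), against 10.3% of all 978 windows of the 4 arms and 7.81% of those outside both the tips and the 2 Mb at the centromere ends. All 6 were on 2L (4 of 10) and 3L (2 of 10), and none was on 3R or X. In the rest of X, 17.8% of the windows passed this level, the highest share of the 4 arms. The level of 25% was chosen after the profiles had been seen, and no test was run on these counts.

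**Figure D3:**
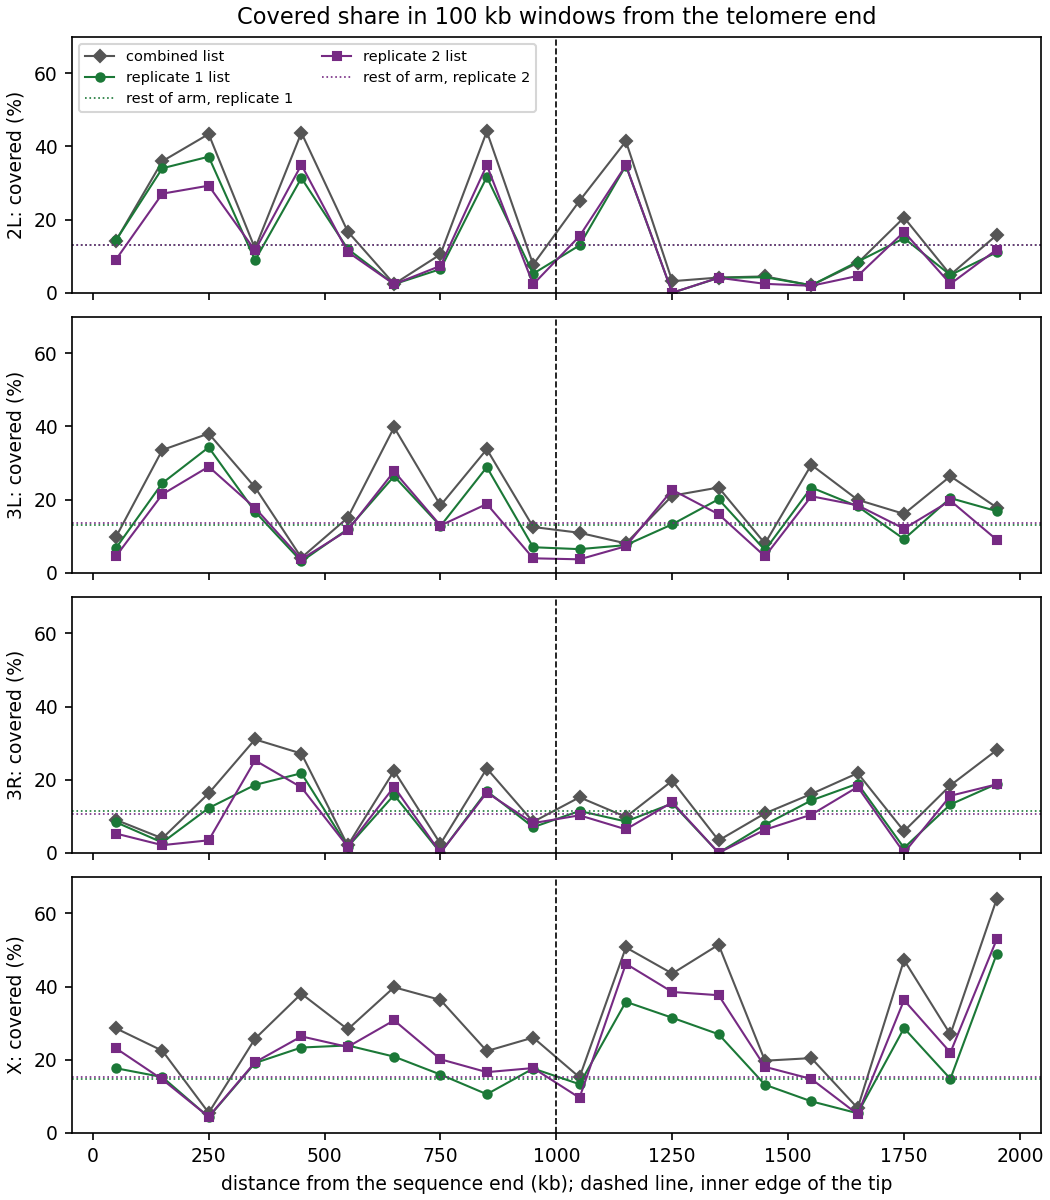
Covered share (%) of 100 kb windows over the first 2 Mb from the sequence end of 4 arms, in the combined list and both replicate lists; the dashed line marks the inner edge of the tip and dotted lines the rest of the arm in each replicate. On 2L the replicates peak together at 400 to 500 kb (31.4% and 35.0%) and drop to 2.35% and 2.34% at 600 to 700 kb, while on X windows beyond 1 Mb reach 48.9% and 52.9%.

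At the very end of the sequences the arms differed in how close the first region came. On X the first region began at base 63 in the combined list and in replicate 1, and at base 146 in replicate 2. The first 20 kb of X was covered at 51.1% in replicate 1 and 75.7% in replicate 2. On 3R the region nearest the end lay 9.69 kb from it in replicate 1 and 9.96 kb in replicate 2, and on 2L it lay 16.0 kb and 16.1 kb from the end. On 3L no region of any of the 3 lists fell in the first 50 kb, and the nearest stood 51.6 kb and 52.1 kb from the end. On each of the 4 arms the nearest regions of the replicates overlapped.

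The outer 100 kb was most covered on X. There the X tip was covered at 17.7% in replicate 1 and 23.1% in replicate 2, all of it in the outer 50 kb. The same 100 kb was covered at 14.4% and 9.08% on 2L, at 8.36% and 5.26% on 3R and at 6.78% and 4.52% on 3L. Over the first 250 kb the order changed, with 23.7% and 17.2% on 2L, 20.2% and 17.3% on 3L, 14.1% and 16.0% on X and 5.00% and 2.94% on 3R. How reads that map to several places were treated is not given, so an end without a region cannot be told apart from an end that was not scored.

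The outermost regions could be followed by position in all lists. On X, the combined region from 63 to 9514 (9.45 kb, score 0.664) took in 3 regions of replicate 1 and 2 of replicate 2, which covered 70.1% and 85.6% of it. The next on X, from 12902 to 25100 (12.2 kb, score 0.994), was covered 70.3% by 2 regions of replicate 1 and 98.7% by 1 region of replicate 2. Farther in on X, the region from 33437 to 36624 overlapped replicate 2 alone. On 3R the combined regions from 27892103 to 27895326 (3.22 kb, score 0.846) and from 27876736 to 27879443 (2.71 kb, score 0.490) each met a region of both replicates. Next on 3R, the region from 27840071 to 27841859 met a region of replicate 1 alone.

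On 2L the outermost combined region ran from 15887 to 22675 (6.79 kb, score 0.440), and regions of replicates 1 and 2 covered 94.8% and 89.7% of it. The next on 2L, from 66122 to 68377, was found in replicate 1 alone, and the one after it, from 71462 to 74865 (score 1.05), in both. On 3L the outermost combined region ran from 50990 to 58002 (7.01 kb, score 0.788), of which replicate 1 covered 91.8% and replicate 2 covered 64.4%. The following regions of 3L, from 59678 to 60913 and from 72220 to 73767, overlapped neither replicate. The score is the authors' own; its scale is not given, and it serves here only to rank regions within a list.

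**Figure D4:**
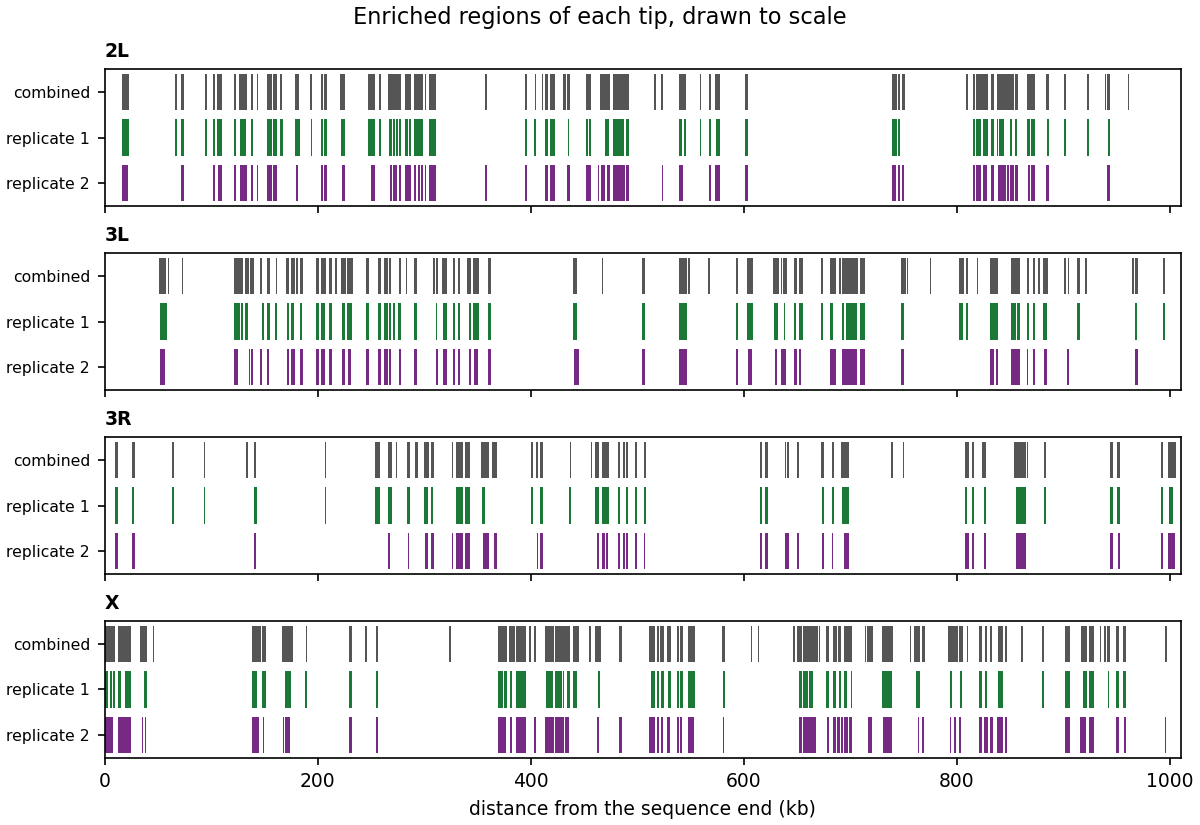
Enriched regions of the 4 tips, drawn to scale by distance from the sequence end (kb), in the combined list and both replicate lists. X begins with a region at its end, 3L has none in its first 50 kb, and 2L has an empty stretch of 135.4 kb between 603.7 and 739.1 kb.

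By distance from the end, the 291 regions were spread over the tips with no gathering at the outer edge. Their median distance was 505 kb, near the middle of the window, with the middle 50% between 276 and 771 kb. The first 250 kb held 62 of them, the next 250 kb 83, the one after it 66 and the innermost 80. In the replicate lists the median was 457 and 477 kb. On 2L the median distance was 433 kb in the combined list, 408 kb in replicate 1 and 416 kb in replicate 2, and the outer 500 kb held 68.6% of the covered bases of the tip in replicate 1 and 65.9% in replicate 2. The regions of X lay farther in, at a median distance of 648 kb in the combined list, 533 kb in replicate 1 and 653 kb in replicate 2, with 47.3% and 44.7% of the covered bases in the outer 500 kb. On 3R the outer 250 kb held 7 of 57 regions and the next 250 kb 26, which put 60.7% and 54.9% of its covered bases in the outer 500 kb. The 3L tip had 49.5% and 50.5% of its covered bases in the outer 500 kb. Its regions stood at a median distance of 486 kb in the combined list, but 400 kb in replicate 1 and 346 kb in replicate 2.

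Numbers of regions, more than their lengths, set the 2L tip apart from the rest of its arm. The 2L tip held 64 regions in each replicate, against 45.7 and 41.5 per Mb in the rest of the arm. Regions there had mean lengths of 2867 and 2657 bp in replicates 1 and 2, against 2876 and 3125 bp in the rest. On X the tip held 56 and 64 regions, against 54.1 and 55.4 per Mb, and the mean length was 3008 and 3069 bp, against 2702 and 2758 bp. The 3L tip held 58 and 51 regions, against 48.1 and 47.0 per Mb, with mean lengths of 2972 and 2970 bp, against 2737 and 2875 bp. Without the 2 Mb at the centromere end, the rest of 3L had 45.8 and 43.1 regions per Mb and mean lengths of 2487 and 2480 bp. The rest of 2L then had 43.8 and 39.4 regions per Mb and mean lengths of 2562 and 2658 bp. On 3R the tip held 42 regions in each replicate, against 45.2 and 41.3 per Mb, with mean lengths of 2561 and 2459 bp, against 2528 and 2538 bp. Regions are not replicates, and no test over them was run.

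Median lengths in the tips were close to those elsewhere. In the combined list the median was 2243 bp in the tips (middle 50% from 1650.5 to 3649.5 bp), against 2156.5 bp in the rest of the 4 arms. In replicate 1 it was 2323.5 bp against 2189 bp, and in replicate 2 it was 2183 bp against 2170.5 bp. By tip, the combined medians were 2252 bp on 2L, 2356.5 bp on 3L, 2089 bp on 3R and 2283 bp on X, against 2190, 2171, 2127 and 2141 bp in the rest of those arms. The longest 25% of combined regions began at 4621.5 bp in the 2L tip, against 3271 bp in the rest of 2L. Against the whole rest of 2L the replicates did not share this difference, with 3670 bp against 2962 bp in replicate 1 and 2984 bp against 3094.5 bp in replicate 2. Without the 2 Mb at the centromere end, the rest of 2L had 2804 bp in replicate 1 and 2834 bp in replicate 2, below the tip in both. On X the longest 25% began at 4120 bp in the tip, against 3230 bp in the rest, and were also longer in the tip in replicate 1 (3395 bp against 3017 bp) and in replicate 2 (3499 bp against 3052.5 bp). On 3R the combined value was lower in the tip, 2708 bp, against 2863 bp in the rest. The replicates differed in direction there, with 2759.5 bp against 2740 bp in replicate 1 and 2585.5 bp against 2679.25 bp in replicate 2. Neighbouring regions of a tip stood a median of 4085 bp apart in the combined list, against 4249.5 bp in the rest of the 4 arms. This gap was 6287 bp against 6621 bp in replicate 1 and 4575 bp against 6494.5 bp in replicate 2, where it differed most.

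Very long regions were few. In the combined list 5 of the 291 tip regions (1.72%) reached 10 kb, against 2.82% of the whole list and 1.80% of the rest of the 4 arms, so their share was near the background. Without the 2 Mb at the centromere ends, 0.958% of the regions in the rest were that long, 52 of 5427, which lies inside the exact 95% binomial interval of the tips' share (0.560 to 3.96%). In the replicate lists 2 of 220 (0.909%) and 4 of 221 (1.81%) tip regions reached 10 kb, against 1.04% and 1.71% of the rest of the 4 arms. Without the centromere ends the rest had 0.347% and 0.632%. These values lie inside the exact 95% binomial intervals of the tips, 0.110 to 3.25% in replicate 1 and 0.495 to 4.57% in replicate 2. The intervals are wide, since they rest on 5, 2 and 4 long regions, and they treat regions as independent. Lying inside them therefore cannot show that the shares are equal. In all 3 lists the share in the tips was above that of the rest without the centromere ends. The longest, on 3L from 691772 to 707427 (15.7 kb), had 76.9% of its bases in 2 regions of replicate 1 and 90.6% in 1 region of replicate 2. On 2L the longest ran from 477084 to 492658 (15.6 kb, score 1.36), covered 83.3% by replicate 1 and 90.9% by replicate 2. The other three were on X, from 12902 to 25100 near the sequence end, from 655114 to 667479 (12.4 kb) and from 729390 to 740163 (10.8 kb). None of the 57 regions of the 3R tip was that long; its longest ran from 27040641 to 27049543 (8.90 kb, score 1.71), and regions of replicates 1 and 2 covered 94.8% and 92.9% of it. Between 7 and 10 kb, limits chosen after the lengths had been seen, the X tip held 7 combined regions (up to 9.45 kb), the 3R tip 3, the 2L tip 2 and the 3L tip 1. Regions of that length outside the tips were not counted, so these counts have no background. The replicates held fewer in the X tip: regions of 9281 and 9754 bp in replicate 1, and of 9284, 8244 and 7078 bp in replicate 2. Outside X, the 3 longest of each tip also included the regions on 2L from 837493 to 846853 (9.36 kb) and from 865889 to 873417 (7.53 kb), on 3R from 27205923 to 27214045 (8.12 kb) and from 26899857 to 26907006 (7.15 kb), and on 3L from 680834 to 686468 (5.64 kb), besides the outermost 3L region already given.

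**Figure D5:**
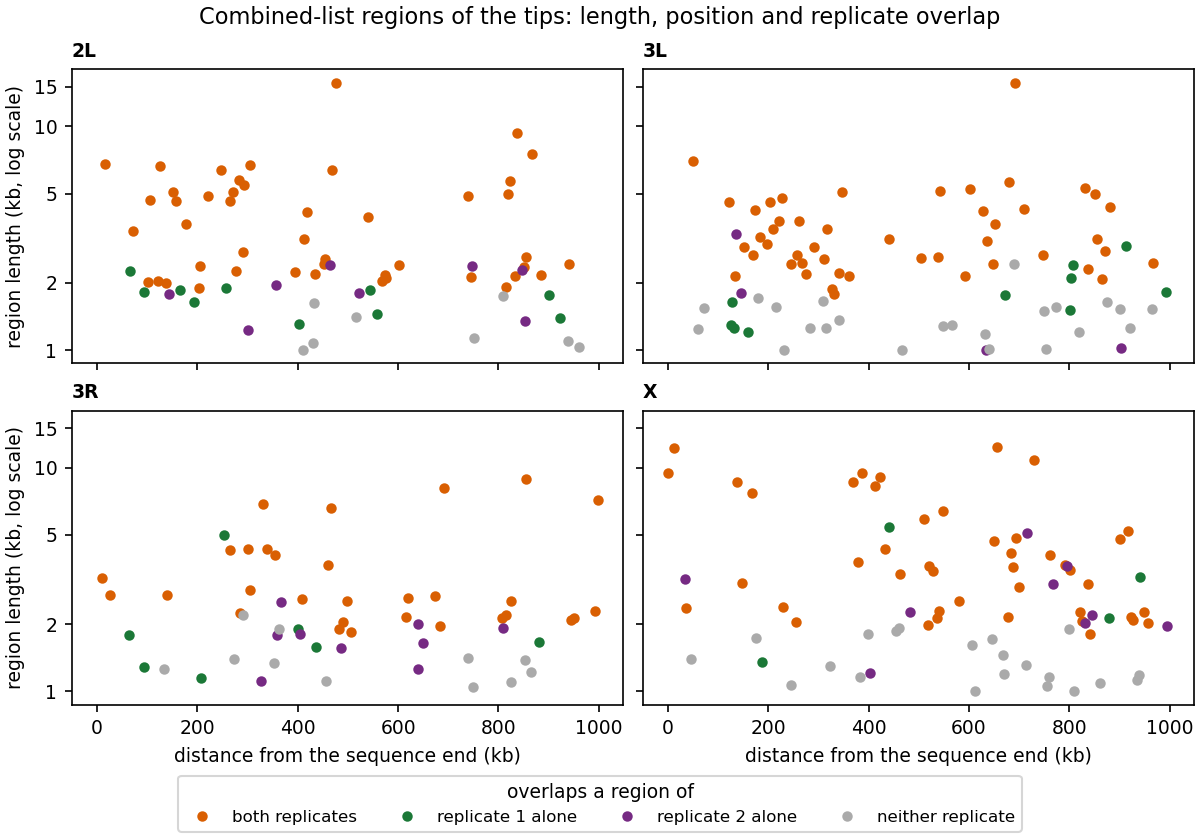
Length (kb, log scale) of the 291 combined-list regions of the tips against distance from the sequence end (kb), coloured by the replicates they overlap. The 5 regions of at least 10 kb lie on 2L, 3L and X and overlap both replicates, and regions found in neither replicate are short, with a median of 1291 bp.

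The tips also held short regions with very high scores. The highest in the tips, on 3L from 504769 to 507355 (2.59 kb), had a score of 3.60, the 6th of 9474 in the combined list, and stood at 3.50 in replicate 1 and 3.75 in replicate 2, where it was matched by 1 region each. On 3R the region from 27282659 to 27285279 (2.62 kb) had a score of 3.50, the 9th of the list, with 3.74 in replicate 1 and 3.26 in replicate 2. On 2L the region from 539492 to 543431 (3.94 kb) scored 2.97 and ranked 35th, and the one from 601361 to 603758 (2.40 kb) scored 2.50 and ranked 91st. The 2L region from 601361 on is the last before the long empty stretch of that tip. Each of these 4 lay between 500 and 620 kb from the end of its arm, limits taken from these same regions. Of the 291 tip regions, they were the only ones among the 100 highest scores of the 9474 combined regions. That is 4 of 291 in the tips, beside 100 of 9474 in the whole list. No test was run on this count, and it does not mark the tips out. Of the tip regions, 7.90% were in the upper 10% by score, against 8.42% in the rest of the 4 arms.

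The X tip had no region of that rank. Its highest score was 1.53, from 838217 to 841244 (3.03 kb), which ranked 468th. The rest of X reached 3.53, but over 1699 regions against 78 in the tip, so the 2 maxima are not on equal terms. In the upper 10% of the combined list by score were 6.41% of the X tip regions, against 7.18% in the rest of X. The region with score 1.53 was followed on X by those from 547577 to 553992 (6.42 kb, score 1.49) and from 229857 to 232227 (2.37 kb, score 1.46). The remaining leaders were on 2L from 854316 to 856925 (score 1.66), on 3L from 290541 to 293421 (score 2.02) and from 709266 to 713522 (score 2.00), and on 3R from 26911222 to 26913514 (score 1.76). All of these overlapped a region of both replicates.

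As a group the tip regions were not scored apart from the others. Their median score was 0.468 in the combined list, against 0.462 in the rest of the 4 arms. In replicate 1 it was 0.694 against 0.661, and in replicate 2 it was 0.651 against 0.632. By tip, X had the highest median in each list, with 0.524 in the combined list, against 0.505 in the rest of X. The lowest was 3R in the combined list, with 0.396, against 0.415 in the rest of 3R. In both replicates the lowest was 2L, with 0.590 and 0.540, against 0.638 and 0.607 in the rest of 2L. The 3R tip had 0.657 and 0.564 there, against 0.605 and 0.579 in the rest. Of the tip regions, 7.90% were among the upper 10% of the combined list by score, against 8.42% in the rest of the 4 arms.

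The replicates marked the tips about as reproducibly as the rest of these arms. By the same rule 220 regions of replicate 1 and 221 of replicate 2 lay in the tips. Of these, 184 in replicate 1 (83.6%, exact 95% binomial interval 78.1 to 88.3%) overlapped a region of replicate 2 by at least 1 bp, against 82.4% in the rest of the 4 arms. In replicate 2, 186 (84.2%, interval 78.7 to 88.7%) overlapped a region of replicate 1, against 83.8% in the rest. In bases, the replicates shared 491 kb of the 755 kb that either covered in the tips (65.0%), against 65.5% in the rest of the 4 arms. By tip the shared part was 67.1% on 2L, 65.8% on 3L, 64.8% on X and 60.7% on 3R, against 69.2%, 65.5%, 62.1% and 65.9% in the rest of those arms. The intervals cover counting error only, and the depth of the libraries is unknown because the files hold no read counts.

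The replicates did not lean the same way in every tip. Replicate 2 covered 1.17 times as much as replicate 1 in the X tip, and 1.05 times as much in the rest of X. In the 3L tip it covered 0.879 times as much, although it covered 1.03 times as much in the rest of 3L. On 2L the values were 0.927 in the tip and 0.987 in the rest, and on 3R they were 0.935 and 0.918.

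Of the 291 combined tip regions, 167 (57.4%, exact 95% binomial interval 51.5 to 63.1%) overlapped a region of both replicates, against 53.2% of the whole combined list and 55.8% of the rest of the 4 arms. This is near the background and does not mark the tips out. A further 31 met replicate 1 alone, 30 replicate 2 alone and 63 (21.6%) neither, where the whole list had 24.4%. By tip, the share found in both was 63.9% on 2L, 56.4% on X, 56.0% on 3L and 52.6% on 3R, each with the value for the rest of its arm inside its interval: 58.3%, 50.9%, 56.4% and 58.4%. The share found in neither was lower in the 2L tip, 8 of 72 (11.1%, interval 4.92 to 20.7%). The rest of 2L had 21.1%, outside that interval. On 3L, X and 3R this share was 27.4%, 26.9% and 19.3%, against 21.6%, 26.5% and 20.1% in the rest, each inside its interval. Regions are not replicates, and no test was run on these shares. The 167 regions found in both replicates had a median length of 3122 bp and a median score of 0.669, and the 63 found in neither had medians of 1291 bp and 0.357. The combined list was made from these same libraries, so its agreement with them is not independent, and how it was made is not given.

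The edge of the rule cut through few regions. The innermost members began 960.1 kb from the end on 2L (score 0.445), 993.4 kb on 3L (0.324), 995.0 kb on X (0.464) and 998.0 kb on 3R (0.758), and the last of these ran across the edge. The first regions outside began 1005.7 kb from the end on 2L (score 1.15), 1006.8 kb on 3L (0.297), 1016.4 kb on X (0.434) and 1016.6 kb on 3R (2.75). No region marked as depleted lay in a tip.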

How the data were processed

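Su(var)3-7 ChIP-seq of head nuclei was represented by 3 lists of regions, 1 for each of 2 ChIP libraries and 1 that combines them. Reads had been aligned with Bowtie 0.12.7, per the submitters' processing notes. Per the file headers, coordinates are of FlyBase release 5. How regions were called, with which threshold and treatment of repeats, and how the replicates were pooled is not given in the sources used. Each region carries a score deposited by the authors, on a scale that is not given; it was used only within a list. Input libraries were not analysed as samples. Without read counts, depth is unknown.

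Enriched regions were kept (3 of the combined list are marked as depleted). Sequence lengths came from the file headers, and 4 regions passed a sequence edge, none of them in a tip. Covered bases of the 4 arms were counted within the sequence only. Lengths, distances and overlaps used the coordinates as listed. Covered bases, lengths, distances (from the sequence end to the nearer edge of a region) and overlaps (at least 1 bp) were computed in Python 3.11.15 with numpy 2.4.6, pandas 2.3.3 and scipy 1.17.1. The covered share of a tip counts bases of the first 1 Mb, while membership follows the start of a region (its end on 3R). The ratios of tip over rest were set over the 2 replicates in an exact sign-flip permutation test. Alternatives changed the window, the comparator, the score or length filter, merging and the list. The interval functions were tested on simulated lists. Named regions were, in each tip, the 3 closest to the end, the 3 longest and the 3 with the highest score. The tips, rules and tests were chosen with earlier results of these data known. Genes and sequences are not named at the regions, since only a release 6 gene table was available and the releases were not mixed.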

Additional observations from a re-analysis of the deposited data

How the results depend on the processing

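The ratios pair the tip with the rest of the same replicate. Without this pairing (no replicate block, added after the data were seen), the mean share of the tip over that of the rest was 1.35 on 2L, 1.21 on 3L, 0.926 on 3R, 1.22 on X and 1.20 together. The unpaired exact permutation test (two-sided) gave p = 0.333 for each, the smallest that 2 against 2 values allow. Among 67 alternative values, 32 stayed within their limit: 1 SD between replicates for ratios, 1.5 times for the number of regions, and an exact 95% binomial interval for the median length and the share found in both replicates. With n = 2, ratios with a replicate left out cannot leave 1 SD, and all of them are among the 32. The unpaired ratios, which nearly restate the main values, are among the 32 as well.

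Ratios of tip over rest turned direction in 3 cases. On 3R the ratio was 1.07 with a tip of 500 kb and 1.003 without the 2 Mb at the centromere end, and on X it was 0.721 against the adjoining 1 Mb. On 2L the ratio was 1.82 with a tip of 500 kb, 1.03 with 2 Mb, 1.63 without the centromere end, 1.20 with the upper 50% by score, 1.47 in regions per Mb, 1.41 in merged regions per Mb and 1.84 against the adjoining 1 Mb. On 3L it was 1.47 without the centromere end and 1.36 with the upper 50% by score. On 3R it was 0.906 with the upper 50% by score, 0.948 in regions per Mb, 0.894 in merged regions per Mb, 0.959 in the combined list and 0.981 against the adjoining 1 Mb. On X it was 1.11 with a tip of 500 kb, 1.51 with 2 Mb, 1.39 with the upper 50% by score, 1.10 in regions per Mb and 1.05 in merged regions per Mb. For the 4 tips together it was 1.32 with 500 kb, 1.18 with 2 Mb, 1.33 without the centromere end, 1.28 with the upper 50% by score, 1.17 in regions per Mb, 1.13 in merged regions per Mb and 1.05 against the adjoining 1 Mb. The cause of these shifts was not tested. The adjoining 1 Mb was added after the data were seen. Leaving out a replicate gave 1.31 to 1.40 on 2L, 1.12 to 1.31 on 3L, 0.918 to 0.935 on 3R, 1.15 to 1.29 on X and 1.19 to 1.21 together.

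The upper 50% of the combined list by score left 142 tip regions, with a median length of 3163.5 bp, 91.5% of them found in both replicates. Merging regions closer than 500 bp gave a median of 2411 bp. Leaving out regions shorter than the shortest replicate region gave 2432 bp and 67.6% found in both. Depth is unknown, so a stretch without a region cannot be told apart from one too thinly covered to call.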
